A study of Mus musculus with 6 samples.

Results

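The ISG15 conjugation pathway was followed in the mouse muscle line C2C12 through the 5 genes that encode its core. These are the modifier Isg15, the activating enzyme Uba7, the conjugating enzyme Ube2l6, the ligase Herc6 and the protease Usp18. The members were chosen by name, all 5 were listed in the data, and they are 5 of the 11835 genes that the deposited values cover. Total RNA was sequenced from 3 samples transfected with NC siRNA, a negative control (siNC), and from 3 samples transfected with siRNA against CNN3 (siCNN3), an actin-binding protein of the calponin family. Both groups were C2C12 cells grown with 10% fetal bovine serum and differentiated in 2% horse serum, and they carry no genetic change. The sample labels call the cells mouse myotube and the paper describes them as differentiating myoblasts, and the libraries are bulk RNA of whole cultures of 1 cell line.

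ISG15 is a small protein built of a tandem pair of ubiquitin-like domains. Like ubiquitin, it is joined to lysines of other proteins by a cascade in which an E1 enzyme (UBA7) activates it, an E2 enzyme (UBE2L6) carries it and an E3 ligase attaches it to the target. In the mouse, HERC6 is the main E3 ligase of ISG15, taking the place that HERC5 has in human cells. USP18 removes ISG15 from its targets and, apart from this protease activity, binds the interferon receptor subunit IFNAR2 and dampens signaling by type I interferons. All of these genes are known to be transcribed in response to type I interferon, through a complex that holds STAT2 and IRF9, and are known mainly from antiviral defense.

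The values are FPKM, which scale the fragments of a transcript by its length and by the mapped fragments of the library, and they were summed here over the listed transcripts of a gene. Where 3 values of a group are given, they stand in the order of its replicates 1, 2 and 3. Genes were compared on log2(FPKM + 1) with limma, and a gene with a Benjamini-Hochberg adjusted p under 0.05 over the 11593 genes tested was called. The total FPKM of a library lay between 322621 and 355591, and the number of reads is unknown. An exact permutation test of 3 libraries against 3 cannot give a two-sided p below 0.1. Cnn3 itself was at 61.4 to 62.8 FPKM in siNC and at 19.04 to 39.2 FPKM in siCNN3, so the targeted gene was lower in every siCNN3 library. It was not called (log2 fold change -1.19, limma adjusted p = 0.0669), except without siCNN3 replicate 2 (limma adjusted p = 0.0477). Desmin (Des), a muscle intermediate filament gene, was at 113.0 to 125.1 FPKM in siNC and 84.3 to 103.2 FPKM in siCNN3. The labels do not say whether the 3 samples of a group came from separate cultures on separate days, so the p-values measure the spread between these samples only. In bulk RNA, a lower share of cells that express a gene and less RNA per cell cannot be told apart.

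The 4 members Isg15, Herc6, Usp18 and Uba7 were higher in every siCNN3 library than in any siNC library, while Ube2l6 overlapped between the groups. This order was found for 13.8% of all genes tested, and the opposite order, which 0 members showed, for 9.35%. Herc6 was the only member called higher by limma, compared with 1.73% of all genes tested that were called higher, and no member was called lower, compared with 0.336% of all genes. At an unadjusted p under 0.05, limma gave 4 of the 5 members as higher, all but Ube2l6, beside 9.94% of all genes, and 3 of the 4 without Uba7. Uba7 passed the filter of a mean of 0.5 FPKM only through its siCNN3 values, so its order between the groups is not counted as support, and without Uba7 3 of 4 members did not overlap. Of the calls over all genes, 83.7% were higher, compared with 68.2% after quantile normalization.

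**Figure D1:**
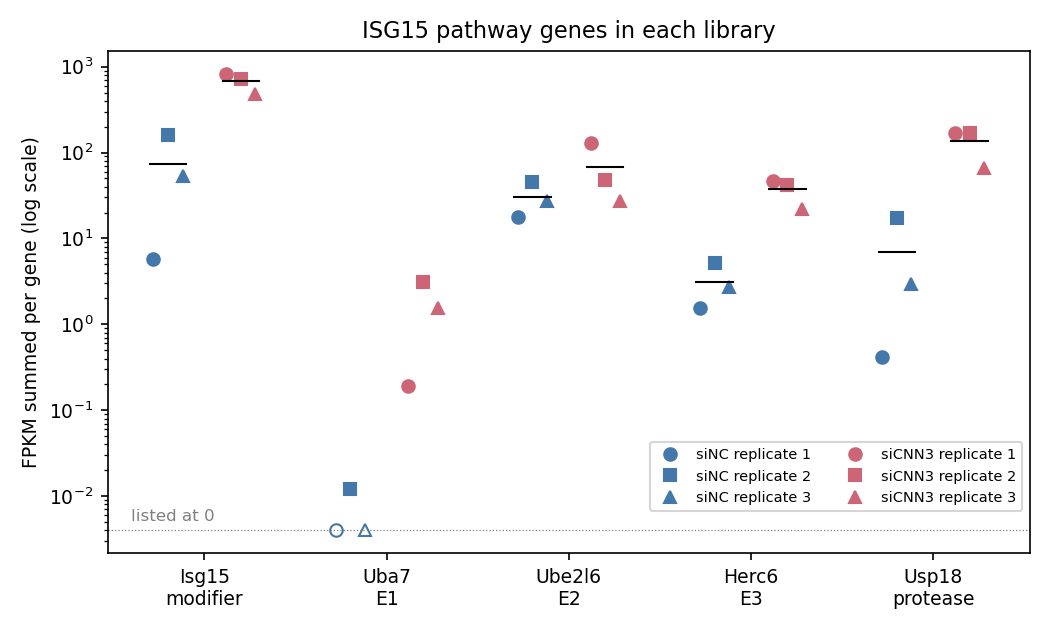
FPKM summed per gene (vertical axis, log scale) of the 5 pathway genes in each library, with siNC in blue, siCNN3 in red, a symbol for each replicate and a horizontal bar at the mean of 3 libraries, drawn for each gene but Uba7. Isg15, Herc6 and Usp18 lie higher in each siCNN3 library than in each siNC library, Ube2l6 overlaps, and open symbols mark the 2 siNC libraries in which Uba7 is listed at 0.

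Isg15, the modifier, lies on the minus strand of chromosome 4 of GRCm38 (156199424 to 156200818) and has 1 annotated transcript of 756 nucleotides in 2 exons, 483 of them coding. The siNC libraries had 5.77, 161.1 and 53.2 FPKM of Isg15, and the siCNN3 libraries had 830.1, 724.8 and 478.1 FPKM. The groups did not overlap, and the lowest siCNN3 library was 2.97 times the highest siNC library. The spread within siNC was wide, with siNC replicate 1 far below siNC replicate 2. Isg15 ranked 36th, 41st and 101st of 11835 genes in the siCNN3 libraries and 7218th, 301st and 1178th in siNC replicates 1, 2 and 3. The siCNN3 mean, 677.7 ± 180.7 FPKM (SD, n = 3), was 9.24 times the siNC mean of 73.4 ± 79.6 FPKM (SD, n = 3). The log2 fold change of Isg15 was 4.08 (standard error 1.04), and the gene was not called (limma adjusted p = 0.112). Its 95% interval, taken for this gene on its own, ran from 1.61 to 6.55. With any 1 library left out, the log2 fold change of Isg15 was between 2.82 and 5.11, and the adjusted p of limma was between 0.0504, without siNC replicate 2, and 0.324.

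The sequence before the start of Isg15 is shown because it holds the letters of an interferon-stimulated response element, the DNA site of the complex that holds STAT2 and IRF9. The windows are from RefSeq on GRCm38.p6, cover 250 bases before the annotated start and read in the direction of transcription. Of the 5 members, 4 had a window, and Usp18 is named only. The element was searched on both strands as GAAANNGAAA, where N is any base, and matches are in capitals. The Isg15 window is chr4:156200819-156201068 on the minus strand. The Herc6 window (chr6:57580742-57580991, plus strand) and the Ube2l6 window (chr2:84798578-84798827, plus strand) are shown beside it, as the member that was called and the member whose groups overlapped.
Isg15: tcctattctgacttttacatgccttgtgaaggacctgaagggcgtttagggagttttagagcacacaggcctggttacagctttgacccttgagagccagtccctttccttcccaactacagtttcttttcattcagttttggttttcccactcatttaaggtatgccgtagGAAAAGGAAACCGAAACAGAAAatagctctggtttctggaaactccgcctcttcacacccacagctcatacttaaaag
Herc6: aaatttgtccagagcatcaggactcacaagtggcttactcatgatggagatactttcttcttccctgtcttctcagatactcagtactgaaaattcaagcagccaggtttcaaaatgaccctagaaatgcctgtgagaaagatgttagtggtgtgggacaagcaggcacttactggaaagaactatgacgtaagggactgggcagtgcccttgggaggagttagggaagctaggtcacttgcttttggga
Ube2l6: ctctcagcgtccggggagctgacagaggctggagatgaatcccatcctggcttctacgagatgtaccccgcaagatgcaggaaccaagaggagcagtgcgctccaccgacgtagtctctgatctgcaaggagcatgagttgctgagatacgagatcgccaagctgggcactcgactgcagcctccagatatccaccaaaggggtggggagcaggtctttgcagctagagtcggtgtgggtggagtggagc
The Isg15 window holds 3 matches that overlap one another, at positions -78 to -69, -72 to -63 and -66 to -57, where -1 is the base just before the start. At least 1 match is found in 2.98% of the 32851 RefSeq windows of this length, and 3 or more in 4 windows, Isg15 included. The windows of Herc6, Ube2l6 and Uba7 hold 0 matches. Searches for the GAS element as TTCNNNGAA, the TATA box as TATAAA and the GC box as GGGCGG gave 0 matches in the 4 windows, compared with 7.02%, 12.4% and 32.7% of all windows. Among windows of the genes tested, these shares were 5.86%, 6.44% and 58.3%, and GAAANNGAAA was found in 2.72%. These matches describe letters in a window, and binding of a factor was not measured.

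Uba7, the E1 enzyme that activates ISG15, lies on chromosome 9 (107975505 to 107984060), and 1 of its 15 annotated transcripts was listed, with 24 exons and 3195 nucleotides. The siNC libraries list it at 0, 0.012 and 0 FPKM, and the siCNN3 libraries at 0.190, 3.07 and 1.54 FPKM. The groups did not overlap, but siCNN3 replicate 1, the library with the highest Isg15, had the lowest Uba7 of its group. Zeros in these data may be estimates that failed, as 238 transcripts had a 0 beside a value of at least 10 FPKM within 1 group. On the log2(FPKM + 1) scale the difference for Uba7 was 1.20 (standard error 0.418, limma adjusted p = 0.225), and with a pseudocount of 0.1 it was 3.47 (limma adjusted p = 0.130). Uba7 was not called with any library left out, and without siCNN3 replicate 2 its mean was below the filter. Uba7 was the lowest member in each library. It reached at most 0.424% of the Isg15 FPKM. FPKM is scaled by length, but with 1 of 15 annotated transcripts listed the Uba7 value may miss other transcripts, so this comparison is rough.

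Ube2l6, the E2 enzyme that passes ISG15 to the ligase, lies on chromosome 2 (84798828 to 84810335). With siNC, Ube2l6 stood at 17.6, 45.9 and 27.1 FPKM, and with siCNN3 it stood at 127.6, 48.5 and 27.4 FPKM. Only siCNN3 replicate 1 stood clearly apart, and siCNN3 replicates 2 and 3 differed little from siNC replicates 2 and 3. Its mean was 30.2 ± 14.4 FPKM with siNC and 67.8 ± 52.8 FPKM with siCNN3 (SD, n = 3). For Ube2l6 the log2 fold change was 0.96 (standard error 0.575, limma adjusted p = 0.463), and its 95% interval from -0.40 to 2.33 includes both no change and a rise of more than 2 on the log2 scale. Without siCNN3 replicate 1 the log2 fold change was 0.37 (adjusted p = 0.851, limma), so the mean difference rested largely on that library. Of the 4 annotated transcripts of Ube2l6, 2 were listed. The longer one, of 1560 nucleotides, gave nearly all of the FPKM, and the shorter one, of 343 nucleotides, was between 0 and 1.12 FPKM in each library. In siNC, Ube2l6 was the most abundant enzyme of the pathway in all 3 libraries, and in siNC replicate 1 it was above Isg15 itself.

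Herc6, the E3 ligase, lies on chromosome 6 (57581000 to 57664632), and 1 of its 6 annotated transcripts was listed, with 23 exons and 4767 nucleotides. The siNC samples had 1.53, 5.22 and 2.70 FPKM of Herc6 and the siCNN3 samples 47.2, 42.4 and 22.3 FPKM. The groups did not overlap, and the lowest siCNN3 library was 4.27 times the highest siNC library. The mean rose from 3.15 ± 1.88 FPKM in siNC to 37.3 ± 13.2 FPKM with siCNN3 (SD, n = 3), which was 11.8 times as high. Herc6 rose by 3.23 on the log2 scale (standard error 0.396, limma adjusted p = 0.0152), with a 95% interval from 2.30 to 4.17. The call was kept when siCNN3 replicate 3, siNC replicate 1 or siNC replicate 2 was left out, with adjusted p of limma between 0.00734 and 0.0487. It was lost without siNC replicate 3 (adjusted p = 0.0849), siCNN3 replicate 1 (adjusted p = 0.0662) or siCNN3 replicate 2 (adjusted p = 0.0746), where limma called 16, 39 and 28 genes higher in all and the log2 fold change of Herc6 stayed between 3.03 and 3.20.

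Usp18, the protease that takes ISG15 off its targets, lies on the same chromosome (121245906 to 121270917). In siNC, Usp18 was found at 0.412, 17.3 and 2.91 FPKM, and in siCNN3 at 170.1, 167.2 and 66.8 FPKM. The groups did not overlap, and the lowest siCNN3 library was 3.86 times the highest siNC library. As for Isg15, the spread within siNC was wide and siNC replicate 2 was the highest. The siCNN3 mean of 134.7 ± 58.8 FPKM was 19.6 times the siNC mean of 6.88 ± 9.13 FPKM (SD, n = 3). The log2 fold change of Usp18 was 4.74 (standard error 0.890), the highest of the 5 estimates, and its 95% interval ran from 2.63 to 6.86, but it was not called (limma adjusted p = 0.0525). Usp18 was called without siNC replicate 2 (adjusted p = 0.0148), without siCNN3 replicate 3 (adjusted p = 0.0468) and with a filter at 5 FPKM (adjusted p = 0.0471), and in the other gene-level fits by limma it was not. With any 1 library left out, the log2 fold change of Usp18 was between 3.88, without siNC replicate 1, and 5.73, without siNC replicate 2. Of the 4 annotated transcripts, 2 were listed. The one of 1771 nucleotides in 11 exons held most of the FPKM, and the one of 496 nucleotides in 2 exons was at 1.61 to 3.50 FPKM in siCNN3 and at 0 to 0.981 FPKM in siNC.

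**Figure D2:**
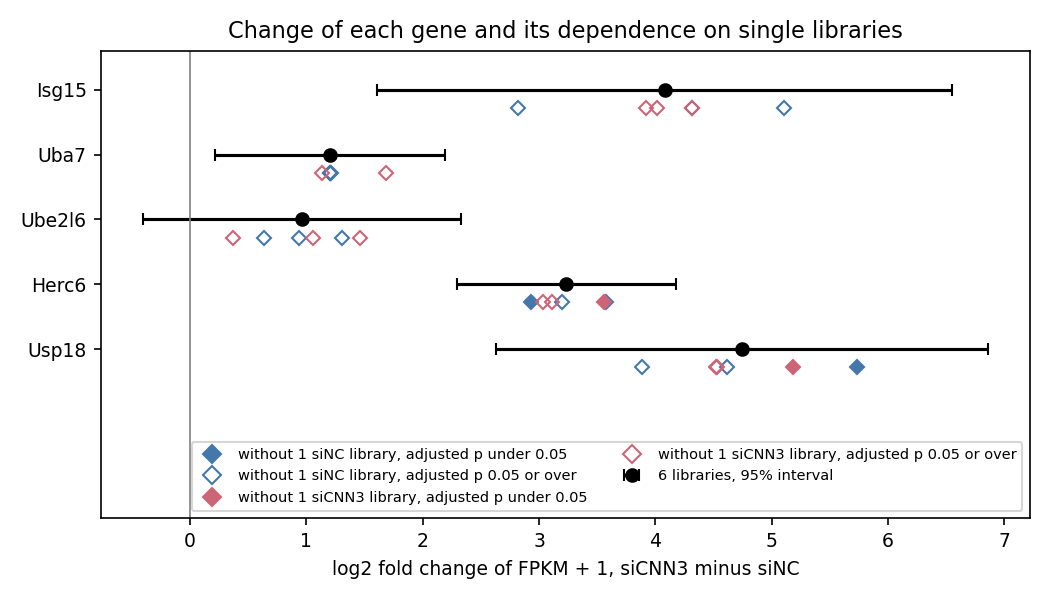
Log2 fold change of FPKM + 1, siCNN3 minus siNC, for each pathway gene (horizontal axis), with black points and bars for the limma estimate and its 95% interval from 6 libraries and diamonds for fits without 1 library. Filled diamonds have an adjusted p under 0.05, which holds for 3 such fits of Herc6 and 2 of Usp18, and only the Ube2l6 interval spans 0.

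Tested one by one in place of their sum, 1 transcript of a member was called higher, that of Herc6 (adjusted p = 0.0464, limma), beside 0.462% of the 21658 transcripts tested. Genes on either strand overlap 3 of the loci. Gm44148 covers 15715 nucleotides of the Usp18 locus on the opposite strand, Gm45193 covers 45031 nucleotides of the Herc6 locus on the same strand, and Gm20661 covers 1003 nucleotides of Uba7 on the same strand. None of the overlapping genes was among the genes listed, and whether counting used strand is not given in the sources used here, so reads of such pairs cannot be told apart.

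The siNC samples were not alike in the level of this pathway. Isg15, Ube2l6, Herc6 and Usp18 were all highest in siNC replicate 2 and lowest in siNC replicate 1. Added up, the 5 genes came to 25.3, 229.6 and 86.0 FPKM in the siNC libraries and to 1175, 985.9 and 596.1 FPKM in the siCNN3 libraries. The pathway thus took 0.170% to 0.331% of the matched FPKM of a siCNN3 library and 0.00785% to 0.0655% of that of a siNC library. Among siCNN3 samples, the same 4 genes were highest in replicate 1 and lowest in replicate 3. Of 16 blood and immune cell markers, 6 were tested, and their summed FPKM was 234.7 to 658.5 in siNC and 54.0 to 76.2 in siCNN3. The highest sum was that of siNC replicate 2, in which the beta-globin gene Hbb-bs was at 250.4 FPKM, compared with 73.4 and 75.8 FPKM in siNC replicates 1 and 3. The 4 globin genes made up most of the sum. Hbb-bs and Hbb-bt were called lower in siCNN3 (limma adjusted p = 0.0264 and 0.0495), beside 0.336% of all genes tested that were called lower. Of the 6 fits that each left out 1 library, limma called Hbb-bs in 2 (adjusted p up to 0.0961) and Hbb-bt in 1, that without siNC replicate 2 (adjusted p up to 0.151 in the rest). The tested leukocyte markers Cd68 and Lyz2 were highest in siNC replicate 1, at 5.39 and 4.80 FPKM, where Isg15 was lowest, and were not called. The other 10 markers, with the leukocyte gene Ptprc among them, were not analysed here. The part of other cells in the pathway values was not tested.

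Proportions within the pathway were compared as ratios to Isg15 in the same library. The log2 ratio of Usp18 to Isg15 was -3.81, -3.22 and -4.19 in the siNC samples and -2.29, -2.12 and -2.84 in the siCNN3 samples. Every siCNN3 library had more Usp18 per Isg15, with a mean difference of 1.33 on the log2 scale (two-sided exact permutation p = 0.1, the smallest that 3 against 3 allows, 4 ratios compared). As a share, Usp18 was 5.47% to 10.7% of Isg15 FPKM in siNC and 14.0% to 23.1% in siCNN3. This order depended on low values. With 1 added to each FPKM, the Usp18 ratio overlapped between the groups, with a mean difference of 0.66 (exact permutation p = 0.3).

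Relative to Isg15, Ube2l6 was lower in every siCNN3 library. Its log2 ratio to Isg15 was 1.60, -1.81 and -0.97 in the siNC samples and -2.70, -3.90 and -4.12 in the siCNN3 samples. Ube2l6 had 28.5% to 304.1% of the Isg15 FPKM in siNC libraries and 5.73% to 15.4% in siCNN3 libraries, a mean difference of -3.18 on the log2 scale (two-sided exact permutation p = 0.1). Without siNC replicate 1 this difference was -2.18, and without siNC replicate 2 it was -3.89. Herc6 overlapped in this measure, with log2 ratios of -1.91, -4.95 and -4.30 in siNC and -4.14, -4.10 and -4.43 in siCNN3 (mean difference -0.50, exact permutation p = 0.9). The sign of the Herc6 difference rested on siNC replicate 1, without which it was 0.41. In siCNN3 the Herc6 share of Isg15 was 4.65% to 5.85%, the narrowest range of the 4 enzymes relative to its size. Uba7 was at 0%, 0.00745% and 0% of the Isg15 FPKM in the siNC samples and at 0.0229%, 0.424% and 0.323% in the siCNN3 samples, so this share was higher in every siCNN3 library. With 1 added to each FPKM because of its values at 0, the log2 ratio of Uba7 to Isg15 had the opposite order, with a mean difference of -2.88 (exact permutation p = 0.1), or -1.62 without siNC replicate 1. The added 1 exceeds the FPKM of Uba7 itself in 4 of the 6 libraries, so no direction is read from this ratio. By mean FPKM the order in siCNN3 was Isg15, Usp18, Ube2l6, Herc6 and Uba7, and the range of Ube2l6 overlapped that of Usp18 and that of Herc6. In siNC it was Isg15, Ube2l6, Usp18, Herc6 and Uba7, and the ranges of Isg15 and Ube2l6 overlapped, as did those of Isg15 and Usp18 and those of Usp18 and Herc6.

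**Figure D3:**
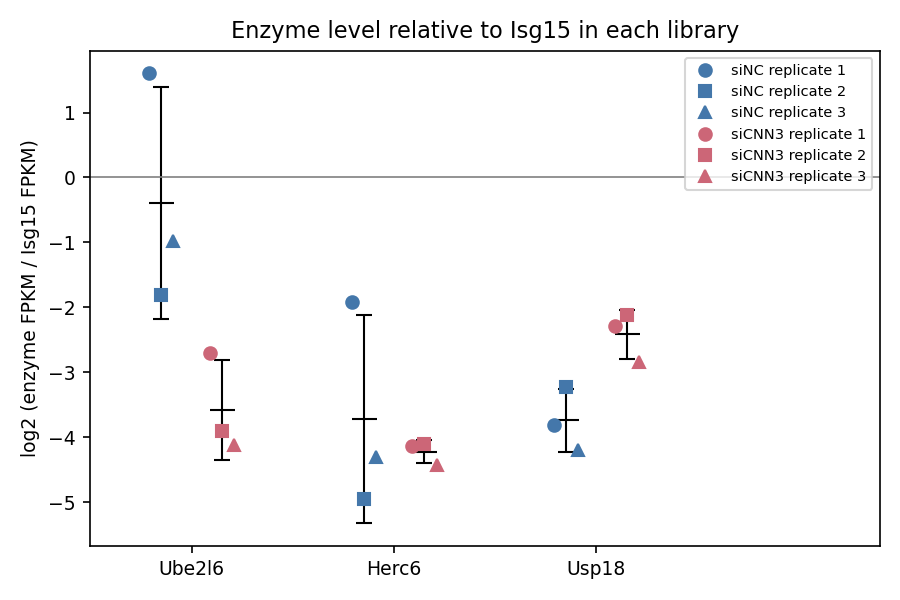
Log2 ratio of the FPKM of Ube2l6, Herc6 and Usp18 to that of Isg15 in the same library (vertical axis), with siNC in blue, siCNN3 in red and the mean and SD of 3 libraries in black. Usp18 lies higher and Ube2l6 lower relative to Isg15 in each siCNN3 library than in each siNC library, while the Herc6 ratios overlap, and Uba7 is left out because of its values at 0.

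The enzymes closest to the members in other pathways were compared, as their names and reaction steps are alike. UBA1, the main E1 of ubiquitin, had 84.7 to 103.8 FPKM in siNC and 90.8 to 102.7 FPKM in siCNN3 (log2 fold change of Uba1 0.04, adjusted p = 0.896, limma). Of 9 activating enzyme genes of other modifiers, 0 were called by limma and 2 were higher at an unadjusted p under 0.05, with log2 fold changes from -0.30 to 0.31. Ube2l3, the closest relative of Ube2l6 and an E2 of ubiquitin, was at 41.9, 22.8 and 11.6 FPKM in siNC and 14.2, 13.0 and 11.2 FPKM in siCNN3, again with a wide siNC spread (log2 fold change -0.77, adjusted p = 0.406, limma). Of 35 conjugating enzyme genes of other modifiers, 0 were called, and 3 were higher and 2 lower at an unadjusted p under 0.05. The ligases Herc1, Herc2, Herc3 and Herc4 were not called, with 0 of 4 past an unadjusted p of 0.05 and log2 fold changes from -0.29 to 0.07. Over all genes tested, limma called 1.73% higher and 0.336% lower, and 9.94% were higher at an unadjusted p under 0.05. At these shares, lists as short as these can hold 0 called genes.

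Of 8 genes of other proteases and ligases known to act on ISG15, limma called 1 higher, beside 1.73% of all genes tested. This was Trim25, which encodes an E3 ligase that also ubiquitinates the RNA sensor RIG-I. The siNC samples had 8.22, 16.8 and 13.5 FPKM of Trim25 and the siCNN3 samples 43.9, 45.2 and 41.0 FPKM (log2 fold change 1.73, limma adjusted p = 0.0222). It lost the call when siCNN3 replicate 1, siCNN3 replicate 2 or siNC replicate 3 was left out (limma adjusted p up to 0.110). Arih1, another ligase, and the peptidases Usp2, Usp5, Usp13, Usp14, Usp16 and Usp21 had log2 fold changes between -0.27 and 0.28 and were not called. Of 46 ubiquitin-specific protease genes other than Usp18, which include those 6, 1 was called higher, close to the 1.73% of all genes tested. It was Usp17la, at 4.69 to 7.03 FPKM in siNC and 16.4 to 23.8 FPKM in siCNN3. Its log2 fold change was 1.60 (adjusted p = 0.0153, limma), the call was lost when siCNN3 replicate 1, siCNN3 replicate 2 or siNC replicate 3 was left out (limma adjusted p up to 0.0840), and Usp17la belongs to a family of near-identical copies that can share reads. The median log2 fold change of the 46 was 0.06, beside 0.03 over all genes tested.

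Other modifiers of the ubiquitin family gave a scale for the level of Isg15. Ubb, a polyubiquitin gene, was at 338.2 to 454.3 FPKM in siNC and 405.0 to 514.8 FPKM in siCNN3 and was not called (adjusted p = 0.385, limma). Isg15 in siNC was below every value of Ubb, and in siCNN3 replicates 1 and 2 it was above each. Sumo2, Sumo3 and Nedd8, modifiers with cascades of their own, had log2 fold changes between 0.10 and 0.34 and were not called. Ubd, which encodes the interferon-inducible modifier FAT10, was below the filter, at 0 to 0.318 FPKM in siNC and 0.492 to 0.923 FPKM in siCNN3.

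**Figure D4:**
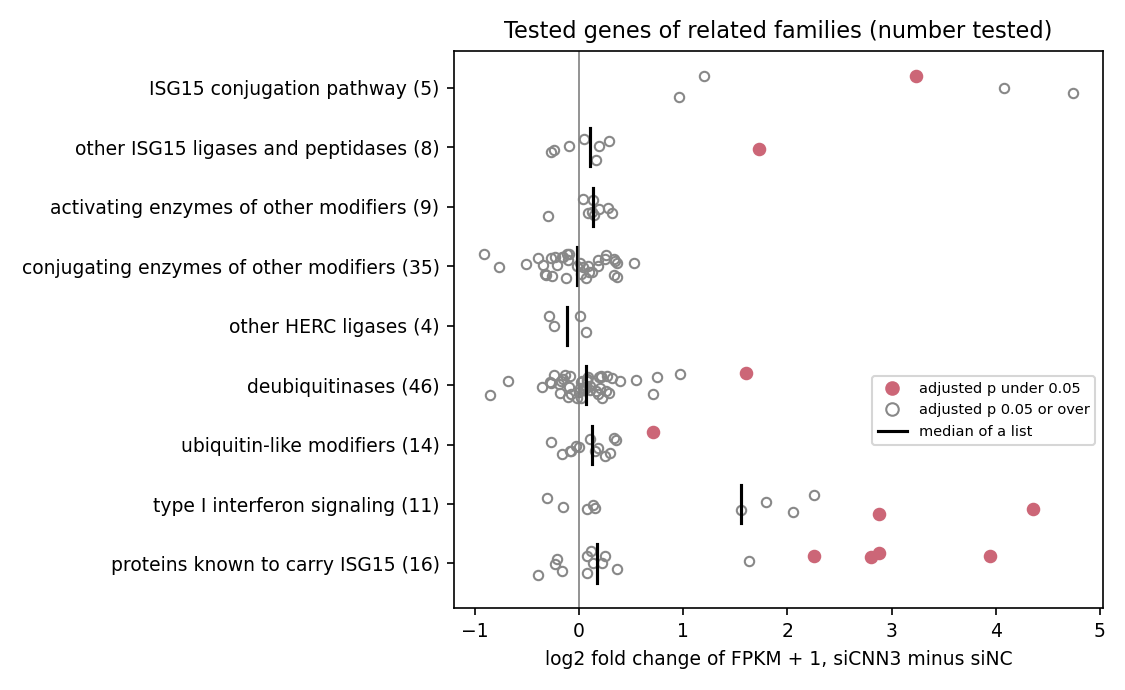
Log2 fold change of FPKM + 1, siCNN3 minus siNC (horizontal axis), of each tested gene in the ISG15 conjugation pathway and in 8 related lists, with the number tested in brackets, filled points for an adjusted p under 0.05 by limma and black bars for list medians. The lists of activating enzymes, conjugating enzymes and HERC ligases hold 0 called genes, while Herc6, Trim25 and Usp17la are called in theirs. Over all genes tested, 1.73% were called higher and 0.336% lower.

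Of 11 genes of type I interferon signaling, which drives the transcription of the pathway, 2 were called higher, beside 1.73% of all genes tested. In every siCNN3 library, 6 were higher than in any siNC library, beside 13.8% of all genes. Ifnb1 is 1 of the 6 and passed the filter only through its siCNN3 values, and without it the count was 5 of 10. Ifnb1, the gene of interferon beta, was listed at 0, 0.225 and 0 FPKM in the siNC libraries and at 6.60, 7.78 and 1.01 FPKM in those of siCNN3 (limma adjusted p = 0.0976). Irf7, a transcription factor of interferon genes, was called, with 0.796, 11.8 and 5.33 FPKM for siNC and 130.8, 121.5 and 76.6 FPKM for siCNN3 (log2 fold change 4.36, limma adjusted p = 0.0305). It showed the same low siNC replicate 1 and high siNC replicate 2 as Isg15. Irf7 lost its call when siCNN3 replicate 1, siCNN3 replicate 2 or siNC replicate 3 was left out (limma adjusted p up to 0.126). Stat2 and Irf9, which act together downstream of the receptor, were higher in every siCNN3 library and not called (adjusted p = 0.0910 and 0.220, limma). Ifnar2, the receptor subunit that USP18 binds, overlapped between the groups, at 29.2 to 31.9 FPKM in siNC and 30.3 to 42.6 FPKM in siCNN3.

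Among 16 genes whose proteins are known to carry ISG15, limma called 4 higher and 0 lower. At an unadjusted p under 0.05, 5 were higher and 1 lower, and the median log2 fold change was 0.18. Over all genes tested, the shares were 1.73% called higher, 0.336% called lower and 9.94% higher at an unadjusted p under 0.05. Mx1, a dynamin-like antiviral GTPase, had 0.702, 1.04 and 0.0282 FPKM with siNC and 36.2, 46.5 and 6.43 FPKM with siCNN3 (log2 fold change 3.95, limma adjusted p = 0.0442). The sensors Ddx58 (RIG-I) and Ifih1 (MDA5) had log2 fold changes of 2.26 and 2.80 (adjusted p = 0.0312 and 0.0494, limma). Mx1 kept its call only without siCNN3 replicate 3 (adjusted p up to 0.176 in the other fits), Ifih1 only without siNC replicate 2 or siCNN3 replicate 3 (up to 0.185), and Ddx58 without either of these or siNC replicate 1 (up to 0.133). The phospholipase gene Plcg1, which encodes a known target, had a log2 fold change of -0.39 and was not called (limma adjusted p = 0.288). RNA levels do not show whether any of these proteins was conjugated.

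The genes whose values were most like those of Isg15 were found over the 6 libraries, which fall into 2 groups and share depth and scaling, so the likeness is given as a description. By the smallest root mean square distance on the log2(FPKM + 1) scale, after the siNC mean of each gene was subtracted, they were Igtp (0.53), Irf7 (0.55), Gbp3 (0.58), Ifi44 (0.65) and Oasl2 (0.69). Igtp and Gbp3 encode GTPases of cell-autonomous immunity, and Oasl2 encodes an oligoadenylate synthetase-like protein. Usp18, at a distance of 0.68, was nearer to Isg15 than Oasl2, while Herc6, Ube2l6 and Uba7 were at 1.16, 2.45 and 2.52. Of these 5 genes outside the pathway, Irf7 and Oasl2 were called higher. Oasl2 (adjusted p = 0.0321, limma) lost the call when siCNN3 replicate 1, siCNN3 replicate 2 or siNC replicate 3 was left out (limma adjusted p up to 0.133). The distance includes the difference between the groups, so calls among genes chosen by it are not counted as support. By Pearson's r, which ignores the size of a change, the highest were Ddx24, Apol9a, Gm7334, Ggps1 and Btg3, with r from 0.995 to 0.998. Their log2 fold changes were only 0.35 to 1.84, and 0 of the 5 were called by limma. They too were chosen for likeness to Isg15, whose groups do not overlap, so no count of their p-values is read as support. The members Usp18 and Herc6 had an r of 0.975 and 0.930 to Isg15.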

How the data were processed

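RNA of 3 siNC and 3 siCNN3 samples was sequenced, and the authors deposited FPKM for 24023 Ensembl transcripts of each. The submitters' processing notes name Bowtie 0.12.2 and the builds mm8 and mm10 without a role. The program that estimated FPKM and the read numbers are not given in the sources used here, so no counting error can be given. Identifiers without version matched 23949 transcripts of GENCODE M21 (GRCm38), and FPKM were summed for 11835 genes, so an isoform of opposite change can be hidden in a sum. Genes whose mean reached 0.5 FPKM were fitted as log2(FPKM + 1) by the moderated test of limma 3.58.1 (R 4.3.3), with a trend of variance on mean, no block and Benjamini-Hochberg adjustment. The fit was tested on simulated data before use. Fold changes on this scale understate changes of low genes. Ratios were compared by two-sided exact permutation tests in Python 3.11.15 with scipy 1.17.1, and figures were drawn with matplotlib 3.10.9. Groups came from the sample titles. The members, lists and alternatives were chosen with earlier results of these data known. Genes named are the members, Cnn3, up to 3 called genes of each list with the largest change, list members whose role is stated, the relatives Ube2l3, Uba1, Herc3 and Herc4, and the 5 genes most like Isg15. Genes next to the members were added after the data were seen. Alternatives were a pseudocount of 0.1, no filter or one at 5 FPKM, quantile normalization, scaling by the median of ratios, a block for the replicate number, no trend, single transcripts and each library left out. Usp6nl, which encodes no protease, was taken out of the list of ubiquitin-specific proteases after the data were seen. Some members of the lists are not reported here by name.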

Additional observations from a re-analysis of the deposited data

How the results depend on the processing

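The log2 fold changes of Isg15, Uba7, Ube2l6, Herc6 and Usp18 were above 0 under every alternative that gave a value, and Isg15, Uba7 and Ube2l6 were never called. The count of members called higher, 1 as reported, was 2 with a filter at 5 FPKM and between 0 and 2 with a library left out. Over all genes, 62 were called higher and 6 lower with the replicate block, which keeps fewer residual degrees of freedom. Leaving out a library gave 16 to 443 genes called higher and 4 to 159 lower. Quantile normalization gave 93 genes called lower and median-of-ratios scaling gave 63, and the cause was not tested. The mean difference of the Usp18 to Isg15 ratio was 0.66 with 1 added to each FPKM, compared with 1.33. That of Herc6 to Isg15 was 0.41 without siNC replicate 1, against -0.50 with it. Deviations of same-numbered siNC and siCNN3 samples from their group means correlated at -0.28, 0.31 and -0.02 across genes. Pairs of unlike number reached 0.44 (siNC replicate 1 with siCNN3 replicate 3) and -0.45 (siNC replicate 2 with siCNN3 replicate 3). Not every sample correlated best with its own number. With 3 samples per group, each centered on its group mean, these values cannot decide whether samples shared a batch or day. With the block, Herc6 was still called (adjusted p = 0.0386, limma) and no call of a member changed. Depth is unknown, so values near 0, such as those of Uba7, have no counting limit.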

Other observations

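The nearest listed genes on either side of Isg15 on chromosome 4 were also higher in every siCNN3 library than in any siNC library. AW011738, 2486 nucleotides beyond its upstream end, was at 0.263, 1.00 and 0.372 FPKM in siNC and 4.35, 3.39 and 2.39 FPKM in siCNN3 (log2 fold change 1.51, adjusted p = 0.0398, limma), a call that 2 of the 6 fits with a library left out kept, those without siCNN3 replicate 3 and without siNC replicate 2 (limma adjusted p up to 0.168 in the rest). Agrn, which encodes the matrix proteoglycan agrin and lies 1936 nucleotides beyond the other end, was at 11.3, 16.6 and 16.5 FPKM in siNC and 25.8, 29.8 and 48.8 FPKM in siCNN3 (log2 fold change 1.15, adjusted p = 0.0902, limma). Unlike Isg15, Agrn was highest in siCNN3 replicate 3. Of the 8 nearest listed neighbors of the other 4 members, 0 were called by limma and 2 had an unadjusted p under 0.05. Of these, Timm10 beside Ube2l6 and Ppm1k beside Herc6 were higher in every siCNN3 library (log2 fold change 0.70 and 0.49). Over all genes tested, limma called 1.73% higher, and 9.94% were higher at an unadjusted p under 0.05. The order with every siCNN3 library above every siNC library was found for 13.8% of all genes.

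Of 10 myogenic markers, 8 were tested, 7 were lower in every siCNN3 library and 2 were called lower by limma, the fast troponin gene Tnnt3 (log2 fold change -1.50, adjusted p = 0.0144) and the embryonic myosin gene Myh3 (log2 fold change -1.38, adjusted p = 0.0193). These shares stand beside 9.35% of all genes that were lower in every siCNN3 library and 0.336% that were called lower. Mymk, Mymx and Myh3 passed the filter only through their siNC values, and without them 4 of 5 markers were lower in every siCNN3 library and 1 was called. Neither Tnnt3 nor Myh3 was called when siCNN3 replicate 1, siCNN3 replicate 2 or siNC replicate 3 was left out (limma adjusted p up to 0.0842 and 0.111). Myf5, a factor of undifferentiated myoblasts, had a log2 fold change of 0.88 and was not called (adjusted p = 0.238).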
